A study of Mus musculus with 8 samples.

Results

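Mitochondrial ribosomal protein genes were examined in sorted CD4SP thymocytes (CD4 single-positive cells, the maturing helper-lineage T cells of the thymus) from C57BL/6 mice labelled Pggt1b_KO (KO) or wild type (WT). The product of Pggt1b is the beta subunit of a prenyl transferase that attaches a mevalonate-derived geranylgeranyl lipid to small GTPases. The study addressed how this modification bears on the exit of thymocytes. There were 4 KO and 4 WT samples, each on 1 Mouse Gene 2.0 ST array; how and in which cells Pggt1b was deleted, whether mice were pooled, and their age are not given in the labels used here. The members were all genes whose symbol is Mrpl or Mrps followed by a number, taken where a probe set carries that symbol alone, with the brightest probe set standing for each gene. This gave 71 of the 22180 genes with such a probe set, 43 of the large subunit (Mrpl) and 28 of the small subunit (Mrps). All 71 lay above the intensity filter (a mean log2 value of 5.56) and were therefore tested among 11585 genes.

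The mitochondrial ribosome is built from RNAs encoded in mitochondrial DNA and proteins encoded in the nucleus, made in the cytosol and imported. It translates the few mitochondrially encoded mRNAs, all of which specify core subunits of the respiratory chain and ATP synthase. Some of its proteins descend from those of the bacterial ribosome, whereas others are found only in mitochondria. In T cells, mitochondrial protein synthesis is known for supporting respiration during activation and proliferation.

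The 4 KO arrays held lower Pggt1b log2 values, 7.89, 7.57, 7.69 and 7.86, than the 4 WT arrays, 8.35, 8.38, 8.29 and 8.36 (log2 difference -0.59 ± 0.072 SE, adjusted p = 0.00141). Array medians lay between 5.52 and 5.59. Pairs of arrays correlated at 0.990 to 0.995 within a genotype and at 0.985 to 0.990 between KO and WT, computed over genes, which are no replicates. Of 9 measured CD4SP marker genes, among them Cd4 (means of 12.26 in KO and 12.27 in WT) and Cd3e (12.47 and 12.50), 0 were called between the genotypes. This does not measure purity. The CD8 coreceptor genes also lay above the intensity filter, Cd8b1 at 10.46 in KO and 10.59 in WT and Cd8a at 8.75 and 9.48. The labels do not say whether each sample is a different mouse, so the p-values reflect the spread among these samples, which may be technical.

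The 250 bases before the annotated start are shown for Mrpl52 and Mrpl51, both called lower in KO and both holding a match to a searched motif. The window of Mrpl24, the only member whose KO arrays all lay above all WT arrays, is set beside them. The sequences are those of RefSeq on GRCm38.p6, all on the plus strand, at chr14:54426659-54426908, chr6:125191950-125192199 and chr3:87919294-87919543. Capitals mark matches on either strand to the ETS/GABP core CCGGAAG (reverse complement CTTCCGG) or to the YY1 word AAGATGG (reverse complement CCATCTT).
Mrpl52: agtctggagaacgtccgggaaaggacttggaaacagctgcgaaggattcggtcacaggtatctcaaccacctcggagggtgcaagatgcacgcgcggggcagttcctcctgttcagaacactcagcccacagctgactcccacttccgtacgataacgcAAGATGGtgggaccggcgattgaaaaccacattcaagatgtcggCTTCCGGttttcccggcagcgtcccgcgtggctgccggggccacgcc
Mrpl51: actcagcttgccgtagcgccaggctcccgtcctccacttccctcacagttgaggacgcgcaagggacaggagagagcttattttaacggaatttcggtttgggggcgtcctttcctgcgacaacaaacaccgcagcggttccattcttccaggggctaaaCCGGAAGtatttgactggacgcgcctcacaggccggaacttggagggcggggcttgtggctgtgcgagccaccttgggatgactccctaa
Mrpl24: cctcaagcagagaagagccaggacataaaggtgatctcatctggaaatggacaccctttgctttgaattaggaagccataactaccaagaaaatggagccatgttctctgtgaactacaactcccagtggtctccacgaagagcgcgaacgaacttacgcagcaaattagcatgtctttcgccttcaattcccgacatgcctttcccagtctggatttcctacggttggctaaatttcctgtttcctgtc
In Mrpl52 the YY1 word began 91 bases and the ETS/GABP core 47 bases before the start, and in Mrpl51 the ETS/GABP core began 90 bases before it. The Mrpl24 window held none of the searched words, which says only that these letters are not in it. The windows shown were picked, and whether matches go with direction was not tested. Mrpl27, with a higher mean in KO but not called, held the ETS/GABP core 55 bases before its start. Mrps14, Mrps18b and Mrps36, also with higher means in KO and not called, held neither the ETS/GABP core nor the YY1 word. Nor did Mrpl55, Mrpl11 and Mrpl57, which were called lower. Mrps18b held another searched motif, the NRF1 core GCATGCG, 224 bases before its start. For Mrpl38, the remaining member with a higher mean in KO, there was no window.

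Nearly all members stood slightly lower in KO, and few passed the test. Of 43 large subunit genes 6 fell and 0 rose (13.95% lower), and of 28 small subunit genes 1 fell and 0 rose (3.57% lower), at an adjusted p under 0.05 by limma. Among all tested genes 8.53% were called lower and 4.45% higher, so the share of the large subunit lay above the background, that of the small subunit below it, and that of both together (7 of 71, 9.86%) close to it. These shares were not tested against the background, and they moved with the processing. With median-centred arrays 14 of 71 members (19.7%) were called lower, against 11.4% of all tested genes. With 1 array left out the share of members ran from 1.41% to 9.86%, and that of all tested genes from 4.26% to 8.16%. The share of members was then the lower of these shares, except without KO replicate 4 or WT replicate 1. The sizes were small: the 7 called members were 1.13-fold to 1.19-fold lower, and the largest difference of any member was 0.25 log2. The differences were below 0 in 40 of 43 large subunit genes (93.0%) and 25 of 28 small subunit genes (89.3%), against 59.1% of all tested genes. The median difference was -0.13 log2 for the large subunit and -0.07 for the small subunit, against -0.03 for all tested genes. These medians carry no test, and whether the subunits differ from each other was not tested. In bulk RNA, fewer cells of a type and less RNA per cell cannot be told apart.

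**Figure D1:**
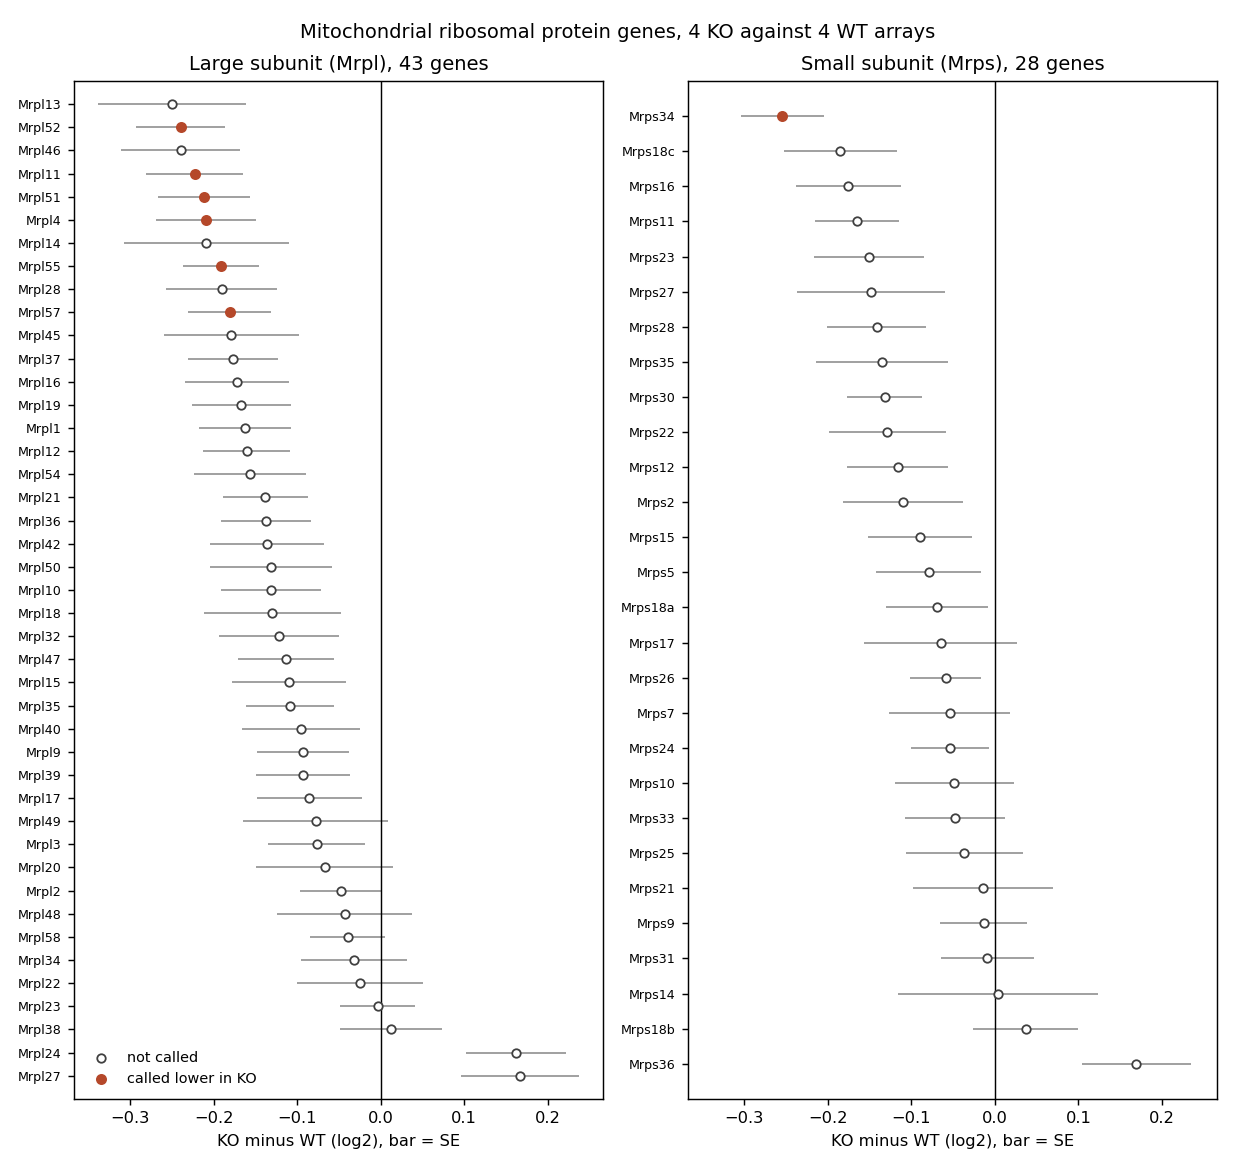
Difference KO minus WT (log2) of each of the 43 large and 28 small subunit genes, with the SE of the fit; filled points are the 6 and 1 genes called lower. In the large subunit 40 points lie below 0 and in the small subunit 25, and the 3 points of each subunit above 0 are not called.

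**Figure D2:**
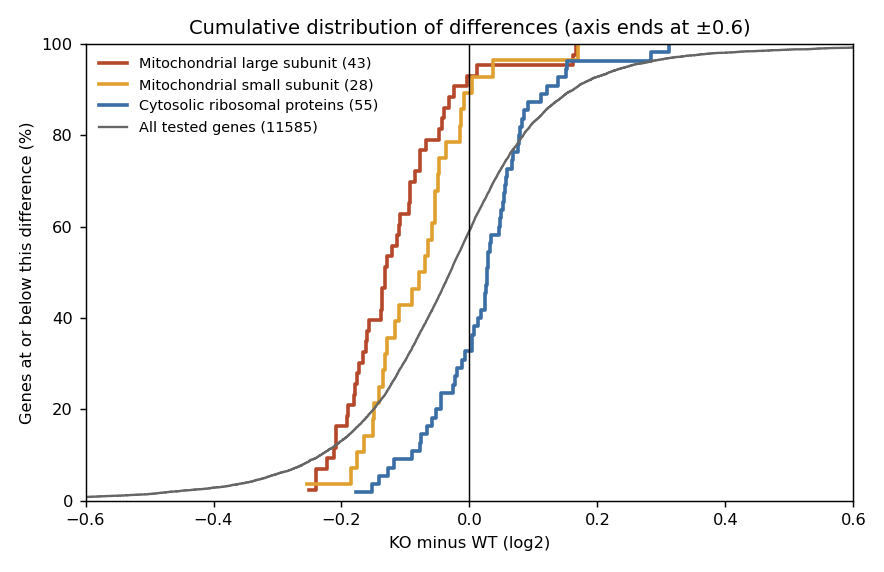
Share of genes (%) at or below each log2 difference KO minus WT, for the 43 large and 28 small mitochondrial subunit genes, 55 tested cytosolic ribosomal protein genes and all 11585 tested genes, shown between -0.6 and 0.6. The mitochondrial curves cross 0 at 93.0% and 89.3%, the cytosolic curve at 32.7% and that of all genes at 59.1%.

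The large subunit genes that fell belong to several regions of the particle. Mrpl52, a protein found only in mitochondrial ribosomes, stood at log2 values of 10.48, 10.48, 10.55 and 10.54 in KO and at 10.73, 10.77, 10.85 and 10.65 in WT. Every KO array lay below every WT array, a difference of -0.24 ± 0.054 SE (1.18-fold lower, adjusted p = 0.0198). Mrpl55, the counterpart of bacterial L31, had values of 8.38, 8.31, 8.36 and 8.35 in KO and of 8.48, 8.57, 8.55 and 8.56 in WT. It was 1.14-fold lower (-0.19 ± 0.045 SE, adjusted p = 0.0250), with the 4 KO arrays within 0.1 log2 of each other and below all WT arrays. Mrpl51, again specific to mitochondria, had 7.56, 7.55, 7.60 and 7.70 in KO, against 7.72, 7.83, 7.84 and 7.87 in WT. The highest KO array and the lowest WT array nearly met, and the difference was -0.21 ± 0.055 SE (1.16-fold lower, adjusted p = 0.0340).

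Mrpl11, which forms the base of the stalk where translation factors bind, gave 8.05, 8.08, 8.03 and 7.96 in KO and 8.15, 8.37, 8.22 and 8.27 in WT. The genotypes did not overlap, although WT replicate 1 lay close to the KO arrays (1.17-fold lower, -0.22 ± 0.058 SE, adjusted p = 0.0348). Mrpl57, a small mitochondria-specific protein, gave 8.46, 8.32, 8.38 and 8.42 in KO and 8.60, 8.62, 8.52 and 8.56 in WT. The arrays separated by genotype here too (1.13-fold lower, -0.18 ± 0.050 SE, adjusted p = 0.0418). Mrpl4, the counterpart of bacterial L4 that lines the exit tunnel, gave 9.23, 9.02, 9.15 and 9.23 in KO and 9.32, 9.32, 9.43 and 9.39 in WT. KO replicate 2 was the lowest of its group, and all KO arrays lay below WT (1.16-fold lower, -0.21 ± 0.060 SE, adjusted p = 0.0483).

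These 6 calls often ended when 1 array was left out. Fewer genes were then called over the whole table too, 813 to 1441 against 1503. The differences of the 6 stayed below 0 in each of these fits, between -0.20 and -0.16 log2 for Mrpl57. Of the 6, 0 remained called without KO replicate 1, WT replicate 2 or WT replicate 3, 1 without KO replicate 2, KO replicate 3 or WT replicate 4, 2 without KO replicate 4 and 4 without WT replicate 1. Other large subunit genes became called in some of these fits: Mrpl46 without KO replicate 2, Mrpl12 and Mrpl14 without KO replicate 4, and Mrpl37 without WT replicate 1. Mrpl52 lost its call when KO replicate 1, WT replicate 2 or WT replicate 3 was dropped (highest adjusted p 0.0578). Mrpl51 lost it without any array other than KO replicate 4 or WT replicate 1 (up to 0.0918). The calls of Mrpl55 and Mrpl11 ended without any array other than WT replicate 1 (up to 0.0686 and 0.0858). Those of Mrpl57 and Mrpl4 ended whichever array was left out (0.0581 to 0.105 and 0.0571 to 0.116). With the sample number as a covariate Mrpl11, Mrpl57 and Mrpl4 lost the call too, while Mrpl12 and Mrpl19 became called. With no intensity filter Mrpl52 alone of the 6 kept its call, and over all probe sets 0 did.

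In the small subunit Mrps34 alone passed the test. Mrps34 is a mitochondria-specific protein whose loss in mice destabilises the small subunit. Its log2 values were 7.58, 7.49, 7.62 and 7.63 in KO, against 7.86, 7.81, 7.81 and 7.87 in WT. No KO array reached the lowest WT array, with a gap wider than the range of either genotype, and the mean was 7.58 ± 0.067 in KO and 7.83 ± 0.032 in WT (SD, n = 4 each). It was 1.19-fold lower (-0.25 ± 0.050 SE, adjusted p = 0.0116), the lowest adjusted p of the 71 members. The call held when each array was left out in turn (adjusted p from 0.0208 to 0.0351) and under all 9 other settings at this threshold (0.00466 to 0.0333).

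**Figure D3:**
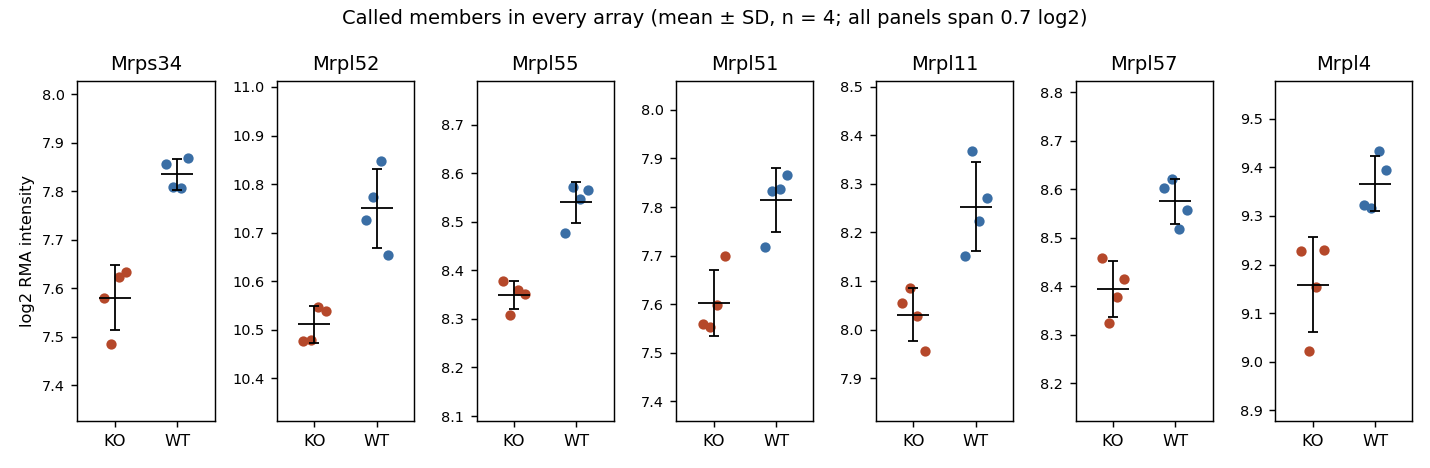
Log2 intensity of the 7 called members in each KO and WT array, with mean ± SD (n = 4 per genotype); each panel spans the same 0.7 log2 on its own level. In every panel all KO points lie below all WT points, with the widest gap in Mrps34 and a narrow one in Mrpl51.

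A further 10 members lay just outside the threshold, with adjusted p between 0.0553 and 0.0999, all with lower means in KO. In the large subunit they were Mrpl46 of the central protuberance (-0.24), Mrpl37 (-0.18), the factor-binding stalk protein Mrpl12 (-0.16), Mrpl1 (-0.16), Mrpl28 (-0.19), Mrpl13 (-0.25), Mrpl19 (-0.17) and Mrpl16 (-0.17). In the small subunit they were Mrps11 (-0.16) and Mrps30 (-0.13). Mrpl12, which has also been described as a partner of the mitochondrial RNA polymerase, had 8.11, 8.14, 8.18 and 8.29 in KO and 8.32, 8.33, 8.34 and 8.39 in WT (adjusted p = 0.0730). Its arrays did not overlap, but those of its second, dimmer probe set did, at 5.69 to 6.17 in KO and 5.84 to 6.25 in WT (-0.04 log2). Mrpl46 had 7.40, 7.72, 7.49 and 7.48 in KO, against 7.84, 7.72, 7.71 and 7.77 in WT (adjusted p = 0.0553), and KO replicate 2 lay within the WT range. Without that array the adjusted p of Mrpl46 was 0.0159. Mrpl4 at 0.0483 and Mrpl46 at 0.0553 are the members on either side of the threshold, at -0.21 and -0.24 log2.

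The 71 members included 18 whose KO arrays all lay below all WT arrays (25.4%, against 13.5% of all tested genes), of which 11 were not called. Of these 18, 14 were in the large subunit (32.6% of its genes) and 4 in the small subunit (14.3%). The reverse arrangement was found in Mrpl24 (1.41% of members, against 6.79% of all tested genes). Mrpl24, the counterpart of bacterial L24 near the exit tunnel, had 10.41, 10.26, 10.23 and 10.35 in KO and 10.05, 10.15, 10.22 and 10.20 in WT. The difference of 0.16 ± 0.060 SE did not pass (adjusted p = 0.108).

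The members above 0 were 6, and apart from Mrpl24 their arrays overlapped. Mrpl27, the counterpart of a bacterial protein close to the peptidyl transferase centre, stood 0.17 ± 0.071 log2 higher in KO (adjusted p = 0.153). Mrps36 carries a ribosomal name but is known as a component of the 2-oxoglutarate dehydrogenase complex. It had 5.90, 5.92, 5.87 and 5.71 in KO, against 5.62, 5.81, 5.62 and 5.67 in WT. These values are near the intensity filter, and the difference of 0.17 ± 0.065 SE was not called (adjusted p = 0.120).

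The Mrps18 paralogs differed in their values. Mrps18c, which sits in the small subunit, stood at -0.18 ± 0.067 SE log2 (adjusted p = 0.103). Mrps18a, found in structures of the large subunit despite its name, stood at -0.07 ± 0.061 (adjusted p = 0.494), and Mrps18b at 0.04 ± 0.063 (adjusted p = 0.751). The 95% intervals ran from -0.34 to -0.03 for Mrps18c, from -0.21 to 0.07 for Mrps18a and from -0.10 to 0.18 for Mrps18b and overlap, and no test between them was run. Mrps30, also a large subunit protein in structures, had 8.03, 8.08, 8.05 and 8.10 in KO and 8.22, 8.17, 8.16 and 8.24 in WT. The groups did not overlap, but the difference of -0.13 ± 0.045 SE was not called (adjusted p = 0.0825).

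Medians by origin and by position are given as a description, with no test between groups. The 28 genes for large subunit proteins of bacterial type had a median of -0.13 log2 with 3 called lower. The 15 for mitochondria-specific ones had a median of -0.14 with 3 called lower. In the small subunit the 15 of bacterial type had a median of -0.08 with 0 called, and the 10 specific ones -0.09 with Mrps34 called. Mrps18a, Mrps30 and Mrps36 were left out of both. The 4 measured genes of the stalk (Mrpl10, Mrpl11, Mrpl12 and Mrpl54) lay between -0.22 and -0.13. The 5 measured genes at the rim of the exit tunnel, where nascent chains leave, had a median of -0.02 and 0 called, and the 7 of the central protuberance -0.10 with Mrpl55 called. In 9 genes a second probe set was present, and all 9 had the same sign as the one used. Because most members lay below 0, a shared sign says little. The second values ran from -0.24 for Mrps16 to 0.09 for Mrps18b.

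Averaged over the members, the large subunit stood at 8.25 ± 0.019 in KO and 8.37 ± 0.035 in WT, and the small subunit at 7.89 ± 0.018 in KO and 7.97 ± 0.027 in WT (SD, n = 4 each; mean log2 of the members per array). The large subunit means ran from 8.23 to 8.27 in KO and from 8.33 to 8.41 in WT, and the small subunit means from 7.87 to 7.91 in KO and from 7.94 to 7.99 in WT. The genotypes did not overlap in either subunit, also with each array centred on its median. In KO arrays between 35 and 40 of the 43 large subunit genes lay below their own WT mean, and in WT arrays between 10 (replicate 2) and 31 (replicate 1).

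The rest of the mitochondrial translation machinery was also examined by gene lists. For these and the later lists the background is that of all tested genes, 8.53% lower, 4.45% higher and a median of -0.03 log2. No list was tested against it. Of 13 tested translation factors 2 fell and 0 rose (15.4% lower), with a median of -0.11 log2. They were Tsfm, the exchange factor of mitochondrial elongation factor Tu, at 1.24-fold lower (-0.31 ± 0.063 SE, adjusted p = 0.0143), and the ribosome recycling factor Mrrf at 1.16-fold lower (-0.21 ± 0.049 SE, adjusted p = 0.0229). The Tsfm values averaged 7.36 ± 0.11 in KO and 7.66 ± 0.060 in WT (SD, n = 4 each), with no overlap between arrays. Mrrf lost its call when KO replicate 1, KO replicate 2, KO replicate 3 or WT replicate 3 was dropped (highest adjusted p 0.0600).

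Of 26 assembly factors of the mitochondrial ribosome 1 rose and 0 fell (3.85% called), with a median of -0.04 log2. The gene that rose was the rRNA methyltransferase Mrm1, at 1.29-fold (0.37 ± 0.085 SE, adjusted p = 0.0221), a call lost when KO replicate 1, KO replicate 3 or WT replicate 3 was dropped (highest adjusted p 0.0595). Of 16 mitochondrial aminoacyl-tRNA synthetases 0 were called by limma, with a median of -0.04. An unadjusted p under 0.05 was found for 3 of them (18.75%), against 29.2% of all tested genes. The genes of mitoribosomal proteins named otherwise, Dap3, Ptcd3 and Gadd45gip1, had 0 calls, and Dap3 stood at -0.12 ± 0.047 log2. Of these genes 1 had an unadjusted p under 0.05 (33.3%, against the same 29.2% of all tested genes).

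Of 13 genes of mitochondrial transcription and DNA maintenance Polg2, the accessory subunit of the DNA polymerase, rose 1.26-fold (adjusted p = 0.0404) and the RNA helicase Supv3l1 fell 1.14-fold (adjusted p = 0.0401), with a median of -0.06. The call of Polg2 ended without any array other than KO replicate 2 or WT replicate 1 (adjusted p up to 0.102), and that of Supv3l1 without any array at all (0.0539 to 0.105). Of 21 genes of import and mitochondrial mass 1 fell (4.76%), the translocase subunit Timm50, by 0.24 ± 0.051 SE log2 (adjusted p = 0.0173), and the median was -0.09. Of 10 tested regulators of mitochondrial gene expression 1 rose, the GABP subunit Gabpb2, at 1.15-fold (adjusted p = 0.0370). That call ended without any array other than KO replicate 4 or WT replicate 2 (adjusted p up to 0.101) and, with each array centred on its median, it was not made. Nrf1, Gabpa, Yy1 and Myc, transcription factors of which the searched motifs are known, stood at -0.0037, -0.08, -0.05 and 0.08 log2 with adjusted p from 0.424 to 0.975; they were chosen after their values were seen.

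Genes for proteins of the cytosolic ribosome did not share the direction. Of 55 tested genes 18 lay below 0 (32.7%), the median was 0.03 log2, and 1 was called, Rps15, which rose 1.24-fold (adjusted p = 0.0421). The call of Rps15 was not made with median-centred arrays, with a second quantile normalization, with no intensity filter, with the sample number as a covariate, over all probe sets, or without any array other than KO replicate 3 or WT replicate 4 (adjusted p up to 0.108). The cytosolic means overlapped between genotypes, from 9.76 to 9.84 in KO and from 9.73 to 9.79 in WT, and with centred arrays their difference changed sign (0.02 as deposited and -0.01 centred). That the cytosolic and mitochondrial lists differ was not tested.

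**Figure D4:**
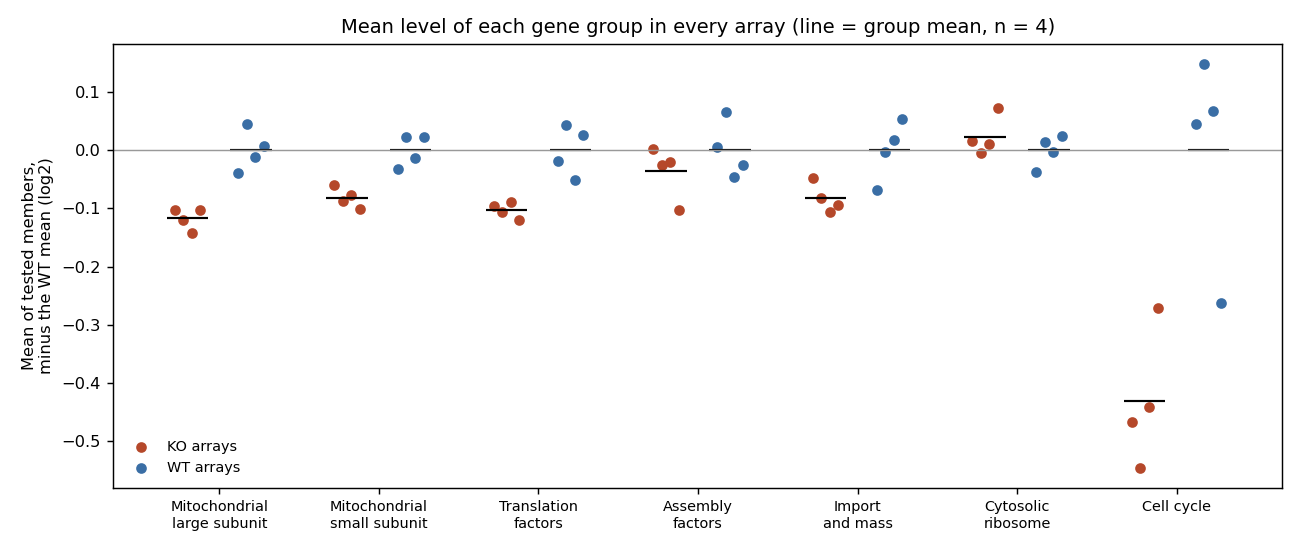
Mean log2 value of the tested members of 7 gene groups in each KO and WT array, set against the WT mean of the same group; lines are means of 4 arrays. KO and WT points separate for both mitochondrial subunits, the translation factors and the cell cycle genes, and overlap for assembly factors, import genes and the cytosolic ribosome. For the cell cycle genes KO replicate 4 (-0.270) and WT replicate 4 (-0.262) nearly meet.

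Among cell cycle genes 12 of the 23 tested fell and 0 rose, and the 4 with the smallest p were the replication helicase subunits Mcm2 and Mcm5 (1.35-fold and 1.46-fold lower), the ribonucleotide reductase subunit Rrm1 (1.33-fold) and Gins2 (1.40-fold). The log2 values of the 23 genes summed to 180.3 to 186.6 in KO arrays and 186.8 to 196.2 in WT arrays. Larger folds were found for Top2a (1.68-fold lower), Bub1, Cdk1 and Mki67, which were called although their arrays overlapped between the genotypes. The part of proliferating cells in the mitoribosomal values was not tested.

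Of 5 CD8 lineage markers Cd8a and Crtam fell (sums of 38.7 to 40.1 in KO and 40.7 to 42.4 in WT), and of 7 regulatory T cell markers Tnfrsf4 and Tnfrsf18 fell (59.9 to 61.3 in KO and 61.7 to 63.0 in WT), while Foxp3 was not called. Cd8a lost its call when KO replicate 2, KO replicate 4, WT replicate 2 or WT replicate 3 was dropped (highest adjusted p 0.0893). Of 5 tested innate-like and NK markers Klrd1 rose and Il2rb, Nkg7 and Zbtb16 fell (all 9 measured summed to 52.9 to 53.8 in KO and 51.1 to 56.7 in WT), and the call of Zbtb16 ended without any KO array or WT replicate 2 (up to 0.106). Of 6 B cell markers 5 lay below the filter, Ms4a1 and Pax5 among them (sums of 31.60 to 32.54 in KO and 31.60 to 32.04 in WT). Of 9 myeloid markers 5 lay below it, including Csf1r and Itgax (48.9 to 51.2 in KO and 48.7 to 50.4 in WT). Of 9 epithelial and stromal markers 4 lay below it, including Epcam and Foxn1 (54.7 to 56.3 in KO and 55.1 to 55.6 in WT). Pecam1 of that list, which T cells also express, rose 1.18-fold, a call that ended without any array other than KO replicate 4 or WT replicate 1 (up to 0.0769). The 1 erythroid marker measured, Klf1, lay below the filter. The part of these cells in the mitoribosomal values was not tested.

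Promoter windows of 250 bases were available for 62 of the 71 members, 68 windows in all. The ETS/GABP core shown in capitals above was present in 16 of them (23.5%), against 13.6% of the windows of all tested genes and 6.91% of all promoters. The cytosolic ribosomal protein windows held it in 25.5%. The NRF1 core GCATGCG (reverse complement CGCATGC) was present in 7 member windows (10.3%, against 5.43% for tested genes and 3.02% for all promoters), the YY1 word in 6 (8.82%, against 4.33% and 4.49%), and the E-box CACGTG, which is its own reverse complement, in 7 (10.3%, against 8.43% and 6.02%). Of these 7 E-box windows 3 are overlapping windows of Mrpl2, so 5 of the 62 genes hold the word (8.06%, against 9.997% of tested genes and 6.86% of all genes with a promoter). The ETS/GABP core and the YY1 word can share the letters AAG, and did so in 0 of the member windows. Of the 7 called members 5 had a window, and the windows of Mrpl55, Mrpl11 and Mrpl57 held none of these letters. No entry was used for Mrpl4 and Mrps34.

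Some members sit head to head with another gene. A start on the opposite strand within 1000 bases upstream was found for 23 members, and the share over all genes was not counted. Mrpl46 and Mrps11 are such a pair, and both lay just outside the threshold, at -0.24 ± 0.071 and -0.16 ± 0.050 SE log2. Mrpl51 lies opposite Ncapd2, a condensin subunit, which fell 1.42-fold (8.75 ± 0.092 in KO and 9.26 ± 0.088 in WT, SD, n = 4 each; adjusted p = 0.00160). Mrpl32 (-0.12, adjusted p = 0.298) lies opposite the proteasome gene Psma2, which fell 1.19-fold (adjusted p = 0.0364). The call of Psma2 ended without any array other than WT replicate 1 (adjusted p up to 0.0941). Of the 21 neighbours tested these 2 were called lower and 1 higher, 4930473A02Rik opposite Mrps26 (0.36 log2, adjusted p = 0.00529). These counts are near the shares of all tested genes, 8.53% lower and 4.45% higher. The median of the neighbours, which include the members Mrpl46 and Mrps11, was -0.09 log2. The neighbours were named after their values were seen.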

How the data were processed

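RNA from 8 sorted CD4SP samples was amplified, labelled with biotin and hybridised, 1 array per sample, per the labels' protocols. The deposited values are log2 intensities of 41345 probe sets, which the authors computed by RMA; the submitters' processing notes name Affymetrix Expression Console 1.1 as the program. Build, annotation release and filters are not given in the labels. Amplified RNA and background signal compress differences of weak probes, and precision is limited by there being 4 arrays per genotype.

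A platform annotation, which can be old, gave 1 symbol to 23521 probe sets (1814 had several and 16010 were unnamed), and the brightest stood for each of 22180 genes. Genes at or above the median probe set mean (5.56) were tested, 11585 in all. The genotypes were compared with lmFit and eBayes of limma 3.58.1 (R 4.3.3; two-sided tests, Benjamini-Hochberg adjustment over the tested genes). A call needs an adjusted p under 0.05, and every difference is KO minus WT. The fit was tested on simulated data with planted differences larger than that of any member. Calls of differences as small as those of the members were not tested in this way. Replicates are numbered in order of deposit and pair no samples.

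Named were every called member (up to 6 per subunit and direction with separate arrays given array by array), members with adjusted p from 0.05 to 0.10, Mrpl12, the Mrps18 paralogs, Mrps30, Mrps36, and up to 4 called genes of each list. The members and lists were chosen with earlier results of these data known.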

Additional observations from a re-analysis of the deposited data

Results flagged for a closer look

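In 73 profiles (71 members and the 2 subunit means), each genotype's 4 arrays were searched for an array set apart from the other 3 by a larger share of the group's range than Dixon's 95% critical value. Of 146 groups examined 5 held such an array, 1 in KO and 4 in WT, while chance flags about 1 in 20 groups. Mrpl54, of the stalk, stood at 8.815 in KO replicate 3, against 8.67 to 8.68 in the other KO arrays, and at 9.04 in WT replicate 2, against 8.79 to 8.83 in the other WT arrays. Mrpl2, the counterpart of bacterial L2, stood at 7.914 in WT replicate 2, above 7.76 to 7.78 in the other WT arrays. Mrps33 stood at 8.304 in WT replicate 1, against 8.49 to 8.51, and Mrps21, the counterpart of bacterial S21, at 6.836 in the same array, against 7.13 to 7.17. None of these 4 genes was called.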

How the results depend on the processing

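No paired analysis was possible because the labels give no replicate numbers that KO and WT share. The direction of both subunit medians and the absence of called rises among the members held in all 17 fits besides the reported one. The number of large subunit genes called lower was 11 after median centring of the arrays or a second quantile normalization, 1 with no intensity filter, and 0 over all probe sets or at an adjusted p under 0.01. The share of all genes called lower was 11.4% with centred arrays and 10.9% after the second quantile normalization, against 8.53% as reported. It was 2.51% with no intensity filter, 2.45% of the probe sets when all were tested, and 2.07% at an adjusted p under 0.01. The number of small subunit genes called lower was 3 with centred arrays, 2 when probe sets of a gene were averaged or the sample number was a covariate, and 0 at an adjusted p under 0.01. Leaving out 1 array gave 0 to 5 for the large and 1 to 2 for the small subunit, with 4.26% to 8.16% of all tested genes called lower. The medians were -0.165 and -0.108 with centred arrays, which moved that of all genes to -0.0644, and ran from -0.146 to -0.109 and from -0.101 to -0.0653 with 1 array left out. Over all genes the count of 1503 became 1704 with centred arrays, 1776 after the second quantile normalization, 920 with no intensity filter, 996 over all probe sets and 446 at an adjusted p under 0.01, and ran from 813 to 1441 with 1 array left out. The cause was not tested. Mrps34 remained called in all 17 fits and Mrpl52 in 13. The difference of Nrf1, which ran from -0.0275 to 0.0388 with 1 array left out, turned to 0.00768 with array weights, 0.0388 without KO replicate 2, 0.00433 without WT replicate 2 and 0.00487 without WT replicate 4.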

Other observations

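A further 13 probe sets carry a mitoribosomal symbol together with that of another gene, and 7 mitoribosomal genes are represented by such probe sets alone. Their differences, which belong to no single gene, ran from -0.25 to 0.17 log2, and 9 of the 13 lay below 0. The 71 members lie on 17 chromosomes, with 11 on chromosome 11 and 8 on chromosome 17.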
